A study of Mus musculus with 12 samples.

Results

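The female mice of a study of Nell1 haploinsufficiency are described here, namely 3 female Nell-1+/6R mice against 3 female WT littermates, 6 of the 12 mice whose hippocampal RNA was sequenced. Membership followed the mouse codes of the count table, which start with F for female mice, and the genes considered were those with at least 1 CPM (reads of a gene scaled to the same total in each mouse) in at least 3 of these 6 mice. Of the 27179 gene IDs in the table, 14483 met that rule and hold at least 99.8% of the counts of each mouse, while 12696 did not, 6333 of these with no count in any of the 6 females. All mice were 3 months old. The Nell-1+/6R females carry 1 Nell1 allele with an ENU-induced mutation (6R) and 1 wild-type allele in every cell of the body, so the model is not restricted to the brain, and mice with 2 mutant alleles die at birth. The WT females carry 2 wild-type alleles, and no treatment is named for either group. Each mouse gave 1 library of the hippocampus. Het, short for heterozygous, also stands in the titles of the WT samples, whose codes and genotype label say WT. The remaining mice of the series, 3 male Nell-1+/6R and 3 male WT, are used below only where the females are set against them.

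Nell1 encodes NELL-1, a large secreted glycoprotein with epidermal growth factor-like repeats that is best known for driving osteoblast differentiation and bone formation, and that is also made by neurons. It acts from outside the cell: it binds the transmembrane proteins Cntnap4 and Atraid and integrins of the beta-1 class, and its close relative NELL-2 is a ligand of the axon guidance receptor Robo3. The loss of 1 working copy asks what the adult hippocampus does with a lower dose of this ligand.

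The libraries held 12393047 to 16016317 counts, so 1 CPM stands for 12.4 to 16 reads in a mouse. Xist, the RNA that silences an X chromosome in female cells, had 2826 to 5930 counts in the 6 females, and the Y-linked genes Ddx3y, Eif2s3y, Kdm5d and Uty had 0 to 3. Nell-1+/6R replicate 3 stood apart most, and Nell-1+/6R replicate 1 came next. Replicate 3 had 229 genes more than 2-fold from both other mice of its group, replicate 1 had 145, and the other mice had 37 to 93. Female Nell-1+/6R replicate 3 was the highest or the lowest mouse of its group for 81.4% of the genes, against 53% to 72% for the other 5 mice. It also carried genes of the cerebellum. Of 15 markers of cerebellar granule and Purkinje neurons, a list written after these counts had been seen, 14 were highest in this mouse. Gabra6, a GABA-A receptor subunit of cerebellar granule cells, had 187 counts in it and 0 to 1 in the other 5. Cbln3, another granule cell gene, had 558 against 2 to 8, and Ppp1r17, a Purkinje cell gene, had 121 against 2 to 4. The share of this in the results below was not tested, and values without replicate 3 are given beside most of them. Choroid plexus genes, which mark the epithelium of the ventricles, varied as widely: their 15 markers summed to 5479 CPM in Nell-1+/6R replicate 1, to 2210 and 832 CPM in WT replicates 1 and 2, and to 49.7 to 68.9 CPM in the other 3 mice. Fewer cells of a type and less RNA per cell cannot be told apart in such bulk tissue.

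No gene passed an adjusted p of 0.05 in edgeR's quasi-likelihood test, with Benjamini-Hochberg adjustment over 14483 genes (0% called), where DESeq2 passed 11 genes, limma-voom 0, and 209 genes (1.44%) had an unadjusted p under 0.05 in edgeR. At the threshold of the study's methods, more than 1.5-fold with an unadjusted p under 0.05, 92 genes (0.635% of those tested) were called, 32 higher (0.221%) and 60 lower (0.414%) in Nell-1+/6R females. All 3 mice of a genotype lay on one side of the other 3 for 740 genes (5.11%, with 3.02% higher and 2.09% lower in Nell-1+/6R females), among them 70 of the 92. An exact permutation test of 3 against 3 mice cannot go below p = 0.1, so single values rest on the model. The leading genes named below, 12 in each direction, were picked among called genes without overlap. Their lack of overlap therefore adds no support. Without Nell-1+/6R replicate 3 the count was 522 (3.6%), 74 higher (0.511%) and 448 lower (3.09%), and it held 72 of the 92. In what follows "rose" and "fell" are used of genes at the threshold of p and fold change, which was not adjusted for the number of genes.

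**Figure D1:**
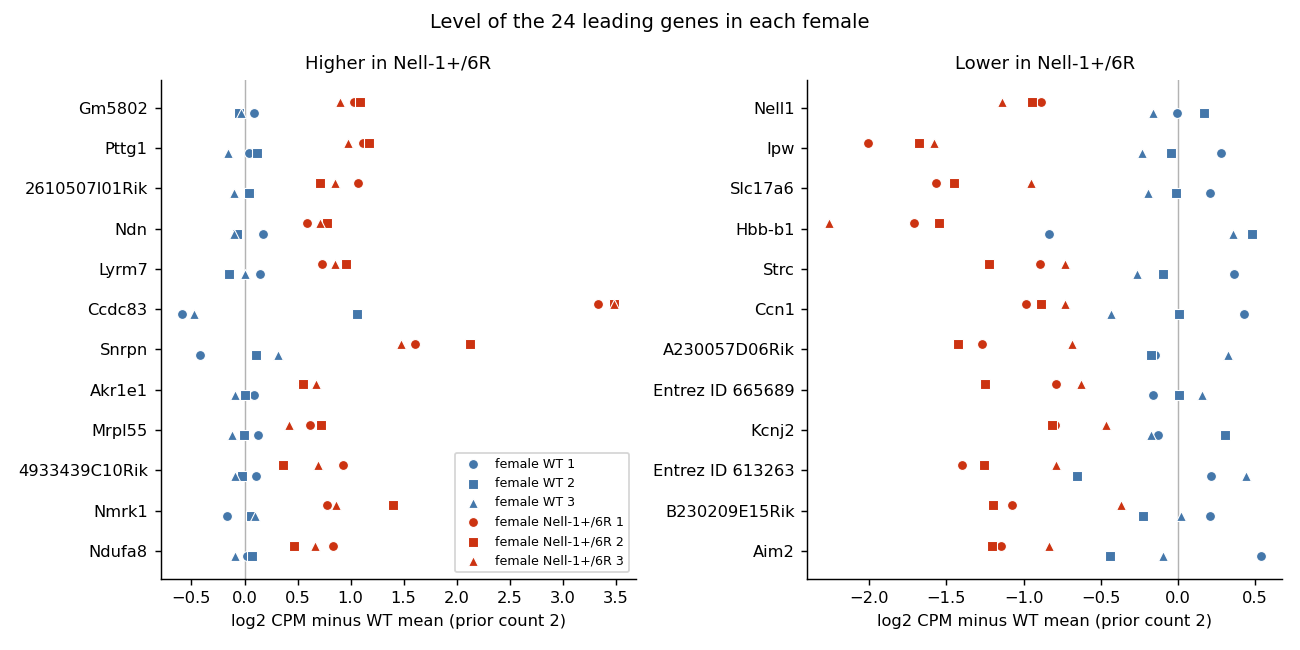
Level of the leading 12 genes by p without overlap of the groups, higher (left) or lower (right) in Nell-1+/6R females, as log2 CPM with a prior count of 2 minus the WT mean. Each point is 1 mouse, WT in blue and Nell-1+/6R in red, with a marker shape per replicate number. In each of the 24 genes the 3 Nell-1+/6R mice lie on one side of the 3 WT mice, which was a condition of their choice.

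Nell1 (Entrez ID 338352), on chromosome 7 from 49975350 to 50863289 in GRCm38, fell 1.99-fold. The 3 WT females had 635, 570 and 526 counts, or 39.6, 44.6 and 35.6 CPM. The 3 Nell-1+/6R females had 271, 255 and 249 counts, or 21.4, 20.6 and 18 CPM. The highest Nell-1+/6R value thus lay under the lowest WT value, and the means were 40 ± 4.53 CPM in WT against 20 ± 1.78 CPM in Nell-1+/6R females (SD, n = 3 each). In edgeR this was a log2 fold change of -0.99 (SE 0.12, unadjusted p = 2.79e-05, adjusted p = 0.135). It remained between -1.05 and -0.92 with each of the 6 mice left out in turn. Adjusted p ranged from 1.25e-07 with DESeq2 to 0.968 without 1 of the mice. Reads of the gene models Nell1os and 4933405O20Rik, which overlap Nell1, cannot be told apart from its own where the strand was not used.

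The genes of the proteins that NELL-1 is reported to meet did not pass the test. Of the 8 genes of this list, Nell1 itself included, Nell1 alone was called, against 0.635% of all genes tested. The median log2 fold change was -0.11 (0.01 over all genes tested), and 6 of 8 values were below 0. Nell2, the relative, had 863, 962 and 952 CPM in WT against 908, 1051 and 928 CPM in Nell-1+/6R females. Cntnap4, the synaptic adhesion protein of GABAergic neurons, had 18.3, 14.3 and 18.2 against 14.4, 13.8 and 21.5 CPM. For both of these genes the groups overlapped. The log2 fold changes of Atraid (0.18, SE 0.12), Itgb1 (-0.21, SE 0.13), Robo1 (-0.16, SE 0.25), Robo2 (-0.11, SE 0.20) and Robo3 (-0.11, SE 0.27) were each less than 2 standard errors from 0. Without Nell-1+/6R replicate 3 the median of the list was -0.31.

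Several genes that lie near Nell1 on chromosome 7 differed along with it. Slc17a6 (Entrez ID 140919) encodes VGLUT2, the transporter that loads glutamate into the synaptic vesicles of many subcortical neurons, and starts 1.65 Mb beyond the start of Nell1. It had 21.5, 18.4 and 16.2 CPM in the WT females and 6.16, 6.70 and 9.54 CPM in the Nell-1+/6R females. The groups did not overlap, and replicate 3 was the highest of the Nell-1+/6R mice. Slc17a6 fell by 1.32 on the log2 scale (SE 0.19, unadjusted p = 0.000116, adjusted p = 0.247), or 2.49-fold, and by 1.55 without replicate 3. The other vesicular glutamate transporters did not pass the test: Slc17a7 (VGLUT1), the transporter of hippocampal pyramidal neurons, had a log2 fold change of 0.16 (SE 0.12) and Slc17a8 (VGLUT3) one of 0.10 (SE 0.30). Slc17a6 is also a marker of the thalamus, next to the hippocampus. Of the 13 thalamus and habenula markers tested (of 17), Slc17a6 alone was called, against 0.635% of all genes tested. Their median log2 fold change was -0.07, or -0.12 without replicate 3. The summed markers, Slc17a6 included, came to 232, 259 and 234 CPM in WT against 226, 208 and 268 CPM in Nell-1+/6R females.

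Farther along the chromosome lies the Prader-Willi and Angelman region, a cluster of imprinted genes of which some are read only from the paternal and Ube3a, in neurons, only from the maternal chromosome. Genes there moved in opposite directions. Ndn (Entrez ID 17984; 62348277 to 62349928) encodes necdin, a paternally expressed protein of postmitotic neurons, and had 118, 99.5 and 97.9 CPM in WT against 157, 180 and 171 CPM in Nell-1+/6R females. Snrpn (Entrez ID 20646; 59982495 to 60450177), for the spliceosomal protein SmN, had 11, 13 and 18 counts in WT and 40, 57 and 40 in Nell-1+/6R females. Ipw (Entrez ID 16353; 59619158 to 59678878), a paternally expressed noncoding RNA, had 103, 65 and 66 counts in WT and only 15, 19 and 23 in Nell-1+/6R females. None of these 3 genes overlapped between the groups, which was a condition of their choice as leading genes. Ndn rose by 0.70 on the log2 scale (SE 0.10, unadjusted p = 0.000129), or 1.62-fold, and Snrpn rose 3.64-fold (log2 fold change 1.86, SE 0.32, unadjusted p = 0.000349). Ipw fell by 1.85 (SE 0.24, unadjusted p = 4.46e-05, adjusted p = 0.162), or 3.61-fold. Without replicate 3 the log2 fold changes were 0.67 for Ndn, 1.98 for Snrpn and -1.98 for Ipw.

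Further noncoding RNAs of the same stretch fell. A230057D06Rik (Entrez ID 319893; 61705850 to 61927574) had 4.18, 4.07 and 5.82 CPM in WT against 1.82, 1.61 and 2.82 CPM in Nell-1+/6R females, a log2 fold change of -1.16 (SE 0.28, unadjusted p = 0.00299). B230209E15Rik (Entrez ID 319752; 61529410 to 61615327) had 39.8, 29.3 and 34.8 CPM against 16.2, 14.8 and 26.6 CPM, a log2 fold change of -0.84 (SE 0.22, unadjusted p = 0.00494). In both, replicate 3 was the Nell-1+/6R mouse nearest to WT, and without it the values were -1.46 and -1.17. Of the 20 genes of the Prader-Willi and Angelman list, 15 were tested, 2 rose (Ndn and Snrpn), 2 fell (Ipw and A230057D06Rik), and 11 did not pass. Over all genes tested, 0.221% were called higher and 0.414% lower. The median log2 fold change was -0.11, or -0.26 without replicate 3. Ube3a, the ubiquitin ligase lost in Angelman syndrome, had 43.3, 27.7 and 39.8 CPM in WT against 29.8, 34.2 and 34.8 CPM in Nell-1+/6R females. Its groups overlapped, as did those of Snhg14, the long host transcript that runs across Snrpn and Ipw (5.18, 1.57 and 6.84 against 2.29, 2.42 and 5.20 CPM). Since Snrpn and Ipw lie within or across Snhg14 in the annotation and the strand setting is not known, their reads may be shared. Snurf, which overlaps Snrpn, was at 0 counts in all 6 mice. Of the 22 genes tested on a list of 27 other imprinted genes, 0 were called by edgeR and 0 had an unadjusted p under 0.05, and their median log2 fold change was -0.04, or -0.11 without replicate 3.

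Taken by position, 15 of the 1094 genes tested on chromosome 7 were called (1.37%, against 0.635% over the genome), 3 higher and 12 lower. Within 20 Mb of the start of Nell1 on either side, 11 of 257 were called (4.28%), of which Ndn and Snrpn rose. Between the starts of Ipw and Ndn, a stretch picked because its ends were called, 6 of 8 genes tested were called. Chromosome 13 held 8 of 510 (1.57%), chromosome 11 13 of 1156 (1.12%), and chromosome 9 had the lowest share above 0, 1 of 824 (0.121%). These windows were drawn after the values had been seen and carry no test.

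**Figure D2:**
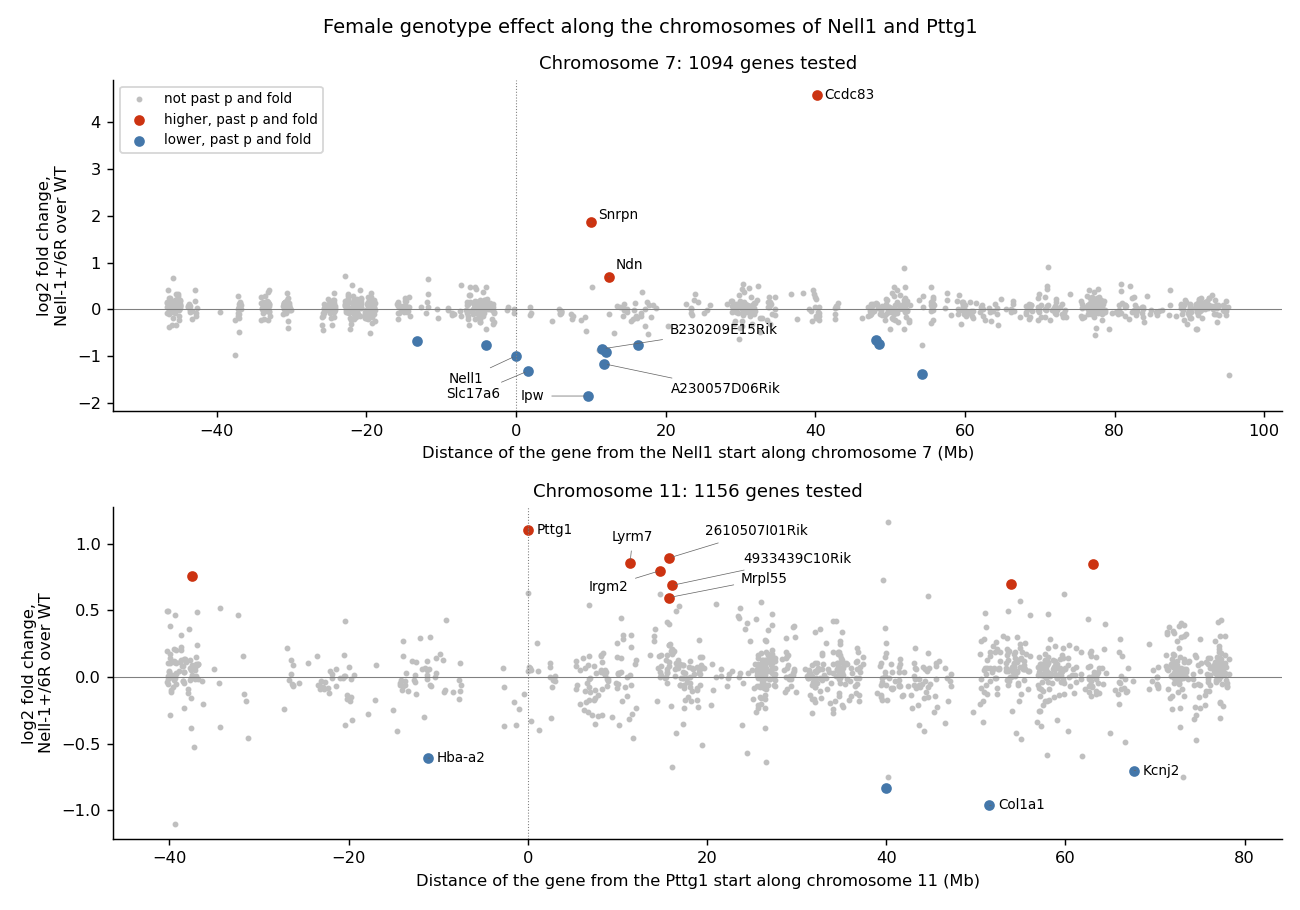
Log2 fold change of each gene tested on chromosome 7 (top, 1094 genes) and chromosome 11 (bottom, 1156 genes) against its distance in Mb from the start of Nell1 or Pttg1. Genes past p and fold change are red where higher and blue where lower in Nell-1+/6R females, and the others are grey. Of the 15 called genes on chromosome 7, 11 lie within 20 Mb of Nell1 and 4 lie 40.2 to 54.3 Mb away. On chromosome 11, 6 of 133 genes tested from Pttg1 to 4933439C10Rik, ends picked because they were called, are called, all higher (0.635% called over all genes), and 4 called genes elsewhere are lower.

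The promoters of 3 of these chromosome 7 genes are shown because their RNA differed in different directions within one stretch of the chromosome: Nell1 and Slc17a6 lower, Ndn higher. Each is the 250 bases before the annotated start (RefSeq, GRCm38.p6, plus strand). Capitals mark the CCAAT box (CCAAT), the GC box (GGGCGG) and the TATA box (TATAAA) on either strand, which do not overlap here and which among all 32851 promoters of this length occur in 33.8%, 32.7% and 12.4%. The Nell1 promoter, chr7:49975100-49975349, is 72% G and C with 22 CpG sites and holds GGGCGG 3 times and CCAAT once, in reverse, 15 bases before the start. The Slc17a6 promoter, chr7:51621580-51621829, is 53.2% G and C and holds GGGCGG once, and the Ndn promoter, chr7:62348027-62348276, at 47.2%, holds none of the 3 motifs. The median promoter is 52.4% G and C with 6 CpG sites. These are letters in the reference sequence and show no binding.
Nell1: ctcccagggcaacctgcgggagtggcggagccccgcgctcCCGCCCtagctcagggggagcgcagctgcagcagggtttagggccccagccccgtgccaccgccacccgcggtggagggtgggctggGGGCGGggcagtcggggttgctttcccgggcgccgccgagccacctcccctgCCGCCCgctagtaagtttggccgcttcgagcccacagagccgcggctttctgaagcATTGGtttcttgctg
Slc17a6: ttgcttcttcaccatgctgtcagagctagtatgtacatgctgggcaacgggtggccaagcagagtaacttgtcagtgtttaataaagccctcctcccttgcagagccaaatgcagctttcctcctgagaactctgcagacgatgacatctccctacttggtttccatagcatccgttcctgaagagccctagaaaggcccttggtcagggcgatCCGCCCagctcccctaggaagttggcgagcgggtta
Ndn: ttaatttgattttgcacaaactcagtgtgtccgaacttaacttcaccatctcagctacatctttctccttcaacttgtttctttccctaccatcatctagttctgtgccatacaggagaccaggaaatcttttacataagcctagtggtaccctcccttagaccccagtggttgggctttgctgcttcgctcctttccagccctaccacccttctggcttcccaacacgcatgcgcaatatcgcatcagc

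On chromosome 11, 9 of the 13 called genes were higher and 4 lower. From Pttg1 to 4933439C10Rik, 16.1 Mb apart and chosen as ends because both were called higher, 6 of the 133 genes tested were called (4.51%, against 0.635% over the genome), all of them higher. Pttg1 (Entrez ID 30939; 43420244 to 43427463) encodes securin, the inhibitor that holds separase back until anaphase. It had 12.1, 12.6 and 10.4 CPM in the WT females and 25.4, 26.5 and 23.1 CPM in the Nell-1+/6R females. The groups lay far apart, at 11.7 ± 1.14 and 25 ± 1.75 CPM (SD, n = 3 each). Pttg1 rose 2.15-fold (log2 fold change 1.10, SE 0.12, unadjusted p = 1.46e-05, adjusted p = 0.106 in edgeR), and by 1.14 without replicate 3. Of 11 tested genes of adult neurogenesis and proliferation, 0 were called by edgeR and 0 had an unadjusted p under 0.05, and their median log2 fold change was 0.02, or -0.03 without replicate 3.

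Lyrm7 (Entrez ID 75530), 11.4 Mb from Pttg1, encodes an assembly factor of mitochondrial complex III. Its 15.7, 12.8 and 14.3 CPM in WT stood against 23.6, 27.8 and 25.8 CPM in Nell-1+/6R females, a log2 fold change of 0.85 (SE 0.13, unadjusted p = 0.000142). A further 4.37 Mb along, 2610507I01Rik (Entrez ID 72203), a noncoding RNA, had 11.4, 11.4 and 10.3 against 23.2, 18.1 and 19.9 CPM, and rose by 0.89 (SE 0.13, unadjusted p = 0.000103). Its neighbour Mrpl55 (Entrez ID 67212), for a protein of the large mitochondrial ribosomal subunit, had 14.9, 13.6 and 12.6 against 21.1, 22.6 and 18.3 CPM and rose by 0.60 (SE 0.13, unadjusted p = 0.00169). The noncoding 4933439C10Rik (Entrez ID 74476) had 12, 10.9 and 10.4 against 21.2, 14.3 and 18 CPM and rose by 0.69 (SE 0.16, unadjusted p = 0.0023). In each of these 4 genes the lowest Nell-1+/6R mouse was above the highest WT mouse, as the choice of the leading genes required. Irgm2, an interferon-induced GTPase and the sixth called gene of the stretch, was named after its values had been seen and had a log2 fold change of 0.80 (SE 0.27). Without Nell-1+/6R replicate 3 the values were 0.84 for Lyrm7, 0.89 for 2610507I01Rik, 0.66 for Mrpl55, 0.67 for 4933439C10Rik and 0.78 for Irgm2. 4933439C10Rik lost its call without Nell-1+/6R replicate 1, at 0.55. Mrpl55 lost its call in the fit over all 12 mice, without WT replicate 2, without WT replicate 3 and without Nell-1+/6R replicate 2, with log2 fold changes of 0.51 to 0.66 over the 6 mice left out.

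Mrpl55 and 2610507I01Rik are transcribed away from each other from starts 55 bases apart (59202486 on the plus and 59202431 on the minus strand), and both rose. The 250 bases before the Mrpl55 start, chr11:59202236-59202485, are shown for that reason, with the same motifs in capitals. They are 64% G and C with 17 CpG sites, and of their 3 GGGCGG motifs, all reversed, those 35 and 16 bases before the Mrpl55 start lie between both starts.
Mrpl55: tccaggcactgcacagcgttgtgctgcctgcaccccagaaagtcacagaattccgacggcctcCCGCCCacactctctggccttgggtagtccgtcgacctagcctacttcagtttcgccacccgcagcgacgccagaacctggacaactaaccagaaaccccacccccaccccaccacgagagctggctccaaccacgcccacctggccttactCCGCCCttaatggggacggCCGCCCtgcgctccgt

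The gene with the smallest p of all was Gm5802 (Entrez ID 545062), a pseudogene on chromosome 14 from 62540396 to 62541287. It had 39, 35.2 and 35.7 CPM in WT against 75.2, 78.3 and 68.2 CPM in Nell-1+/6R females, with no mouse between 39 and 68.2 CPM. Gm5802 rose 2.02-fold (log2 fold change 1.01, SE 0.10, unadjusted p = 5.21e-06, adjusted p = 0.0755 in edgeR), and it was the 1 gene that passed the adjustment without replicate 3. Reads of a pseudogene can belong to its parent gene or other copies, and how such reads were counted is not known here.

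Ccdc83 (Entrez ID 75338), 40.2 Mb beyond Nell1 on chromosome 7, was nearly absent from the WT females and present in the Nell-1+/6R females. Its counts were 0, 3 and 0 in WT and 22, 24 and 27 in Nell-1+/6R mice. The ratio of the pooled CPM was 27.3, with a 95% interval of 8.97 to 135 (Clopper-Pearson, counting error only), since the WT side rests on 3 reads of 1 mouse. Its unadjusted p was 0.000154 in edgeR. Only the 3 Nell-1+/6R mice reached 1 CPM, so Ccdc83 entered the test through the group in which it was high. Its p and interval are therefore no independent support. The fitted log2 fold change, which depends on the prior count, was 4.59, and 4.55 without Nell-1+/6R replicate 3. It ran from 3.98 to 7.71 with 1 mouse left out, the highest without WT replicate 2, which holds all 3 WT reads.

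The remaining 3 of the 12 leading higher genes were Akr1e1, Nmrk1 and Ndufa8. Akr1e1 (Entrez ID 56043, chromosome 13), an aldo-keto reductase, had 15, 14 and 13.1 CPM in WT against 20.5, 20.7 and 22.4 CPM in Nell-1+/6R females. Nmrk1 (Entrez ID 225994, chromosome 19), a nicotinamide riboside kinase of NAD synthesis, had 27, 25 and 30 counts against 42, 64 and 49. Ndufa8 (Entrez ID 68375, chromosome 2), an accessory subunit of mitochondrial complex I, had 5.93, 6.11 and 5.48 against 10.5, 8.07 and 9.32 CPM. None of the 3 overlapped between the groups, again a condition of their choice. They rose by 0.60 (SE 0.11, unadjusted p = 0.0006), 1.09 (SE 0.26, unadjusted p = 0.00267) and 0.67 (SE 0.16, unadjusted p = 0.00269) on the log2 scale. Without Nell-1+/6R replicate 3 they were 0.54, 1.16 and 0.66. Akr1e1 lost its call there, without WT replicate 2, without WT replicate 3 and in the fit over all 12 mice, at 0.54 to 0.58.

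The lower genes included globins of red blood cells. Hbb-b1 (Entrez ID 15129), a beta-globin chain for which the annotation used gives no position, had 256, 508 and 542 counts in WT and 109, 120 and 81 in Nell-1+/6R females. It fell by 1.94 on the log2 scale (SE 0.35, unadjusted p = 0.000515), or 3.82-fold, and by 1.76 without Nell-1+/6R replicate 3. Hba-a2, an alpha-globin chain, had 17.4, 12.5 and 13.3 CPM against 10.3, 10.3 and 7.66 CPM and fell by 0.61 (SE 0.19, unadjusted p = 0.0107). Alas2, the first enzyme of heme synthesis in red cells, had 11, 6.66 and 6.09 against 6.08, 5.97 and 4.05 CPM (log2 fold change -0.56, unadjusted p = 0.0709). For all 3 genes the groups did not overlap, though by little for Alas2. Hba-a2 lost its call without WT replicate 1 and without Nell-1+/6R replicate 3. The other genes of the red blood cell list of 6 had at most 17 counts in a female or no row in the table, and globin genes have near-identical copies between which reads may be split. How much blood remained in each hippocampus was not measured.

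The rest of the 12 leading lower genes lay outside chromosome 7 or had no position. Ccn1 (Entrez ID 16007, chromosome 3), a matrix-associated growth regulator, had 18, 13.3 and 9.81 CPM in WT against 6.64, 7.10 and 7.95 CPM in Nell-1+/6R females, and fell by 0.91 (SE 0.22, unadjusted p = 0.00294). Kcnj2 (Entrez ID 16518, chromosome 11), the inwardly rectifying potassium channel Kir2.1, had 14.2, 19.2 and 13.7 against 8.85, 8.71 and 11.2 CPM, and fell by 0.70 (SE 0.18, unadjusted p = 0.00396). Strc (Entrez ID 140476, chromosome 2), for stereocilin, had 107, 61 and 63 counts against 34, 26 and 42, and fell by 1.00 (SE 0.24, unadjusted p = 0.00289). In each of these 3 genes the lowest WT mouse was above every Nell-1+/6R mouse, which their choice required. Aim2 (Entrez ID 383619, chromosome 1), a sensor of DNA in the cytosol, had 67, 26 and 39 counts against 15, 14 and 21 and fell by 1.20 (SE 0.32, unadjusted p = 0.00556). The gene IDs 665689 and 613263, which have no name in the tables used, fell by 0.90 (SE 0.22) and 1.23 (SE 0.31). Without Nell-1+/6R replicate 3 the values were -1.003 for Ccn1, -0.84 for Kcnj2, -1.14 for Strc, -1.37 for Aim2, -1.06 for 665689 and -1.46 for 613263. Kcnj2 lost its call without WT replicate 2, at -0.55.

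Of the 37 gene lists examined, 12 held a gene at the threshold of p and fold change, which 0.635% of all genes tested passed. Most lists of neuronal function held none, and at that share a short list is likely to hold none. The 10 AMPA and NMDA receptor subunits, which carry fast excitation, had log2 fold changes from -0.29 to 0.17 with a median of 0.01, which was -0.12 without Nell-1+/6R replicate 3. The 11 GABA-A receptor subunits tested, which carry fast inhibition, had a median of -0.19, with 9 of 11 below 0, and -0.49 without Nell-1+/6R replicate 3. Gabra4, an alpha subunit, had 73.5, 71.4 and 84.9 CPM in WT against 49.1, 57.8 and 93.6 CPM in Nell-1+/6R females. Replicates 1 and 2 lay below every WT mouse and replicate 3 above, and the same holds for Gabra2. The 28 autism risk genes of the list had a median of -0.03, or -0.19 without replicate 3, and 0 were called by edgeR, with 0 at an unadjusted p under 0.05.

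The 22 immediate early genes, which neurons switch on when active, had a median of -0.07, or -0.17 without replicate 3. Of these, 2 had an unadjusted p under 0.05 without reaching the fold threshold: Dusp1, a phosphatase of MAP kinases, had 30.2, 33 and 27.9 CPM in WT against 22.1, 20.7 and 23.1 CPM in Nell-1+/6R females (log2 fold change -0.46, unadjusted p = 0.00201), and Btg2 had a value of -0.26 (unadjusted p = 0.0277). For Fos, Arc and Egr1 the groups overlapped. The 16 genes of the glucocorticoid response, those induced by stress hormone, had a median of 0.21, or 0.28 without replicate 3, with 13 of 16 above 0 and 5 at an unadjusted p under 0.05, but none beyond 1.5-fold. Pdk4, a kinase that turns off pyruvate dehydrogenase, was the largest of these, with 12.7, 12.3 and 14.2 CPM in WT against 15.2, 21.5 and 21.5 CPM in Nell-1+/6R females (log2 fold change 0.58, SE 0.17, unadjusted p = 0.0091). Cdkn1a, an inhibitor of cyclin-dependent kinases, did not overlap either, at 9.24, 10.6 and 6.77 against 12, 11.8 and 12.1 CPM. The metallothioneins Mt1 and Mt2 and Tsc22d3 had log2 fold changes of 0.28, 0.30 and 0.23. Over all genes tested, 1.44% had an unadjusted p under 0.05 and the median was 0.01.

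Lists tied to the skeletal role of NELL-1 gave few differences. Over all genes tested, 0.635% were called and 1.44% had an unadjusted p under 0.05 in edgeR. Of 24 genes of BMP signalling and osteogenic regulation, 0 were called by edgeR, and 1 had an unadjusted p under 0.05, Id1, a target of BMP signalling (11.4, 12.4 and 8.80 against 15.6, 14.2 and 12.3 CPM, log2 fold change 0.38, unadjusted p = 0.0494). Their median was 0.05 and turned to -0.09 without Nell-1+/6R replicate 3, and that of 12 Wnt ligands was -0.01 and 0.00. Runx2, the master regulator of osteoblasts, had 15.5, 17.4 and 17.7 CPM in WT against 17.5, 16.8 and 18.1 CPM in Nell-1+/6R females. The 21 matrix genes had a median of -0.15, or -0.30 without replicate 3, and Col6a1, a chain of collagen VI, was called lower. Its 86, 42.3 and 31.3 CPM in WT against 20.7, 21.9 and 35.7 CPM in Nell-1+/6R females overlapped, and the call was lost without WT replicate 1 and without Nell-1+/6R replicate 1 or 2. Of 11 genes of MHC classes I and II, H2-D1, a class I heavy chain, was called lower, where 0.635% of all genes tested were called. It had 14.1, 5.17 and 9.34 against 5.06, 4.36 and 2.96 CPM (log2 fold change -1.21, SE 0.36, unadjusted p = 0.00963). The median of the list was -0.01. The H2 genes resemble one another, so reads may be split between them.

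**Figure D3:**
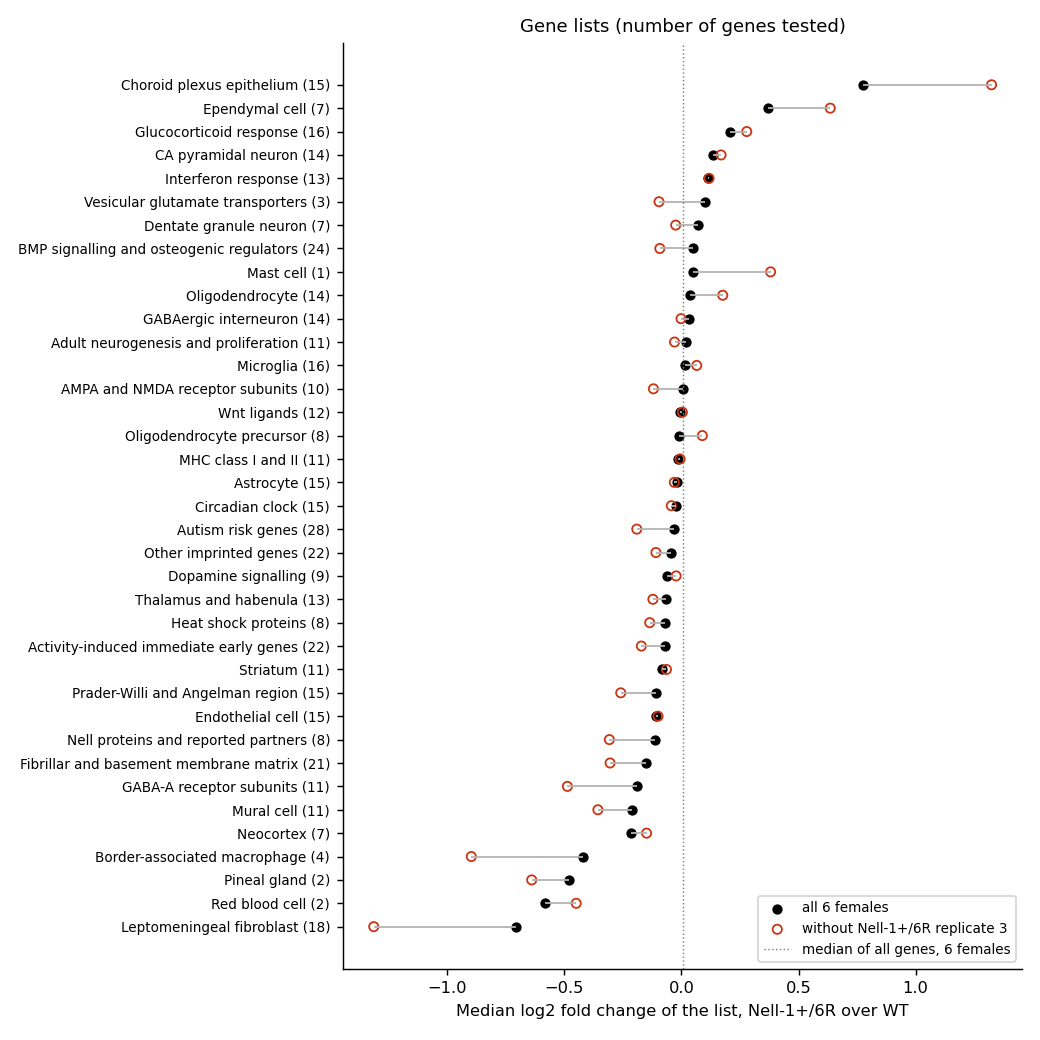
Median log2 fold change of each of the 37 gene lists in all 6 females (black) and without Nell-1+/6R replicate 3 (open red), with the number of genes tested in parentheses and the median of all genes as a dotted line. Most medians lie near 0, choroid plexus and leptomeningeal markers lie at the ends with 0.77 and -0.71, and the open circles of leptomeningeal, border-associated macrophage and GABA-A receptor genes lie well to the left of the black ones.

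For the markers of hippocampal cells the summed levels of both groups overlapped. The 14 markers of CA pyramidal neurons summed to 9685 to 11730 CPM in WT against 10250 to 11860 CPM in Nell-1+/6R females, with 13 of 14 log2 fold changes above 0, a median of 0.14 and none called by edgeR (0 at an unadjusted p under 0.05). The 7 dentate granule markers summed to 297 to 352 and 291 to 365 CPM. C1ql2, one of these 7, did not overlap, with 108, 94.2 and 81.4 against 63.2, 78.8 and 76.1 CPM (log2 fold change -0.37, unadjusted p = 0.0199), and was not past the fold threshold. The 15 astrocyte markers summed to 6513 to 7108 and 6282 to 7146 CPM, and the 16 microglia markers to 617 to 655 and 580 to 674 CPM. Single markers without overlap also numbered 1 of 14 interneuron, 1 of 14 oligodendrocyte and 1 of 8 oligodendrocyte precursor markers, where 5.11% of all genes did not overlap. Among GABAergic interneuron markers the median log2 fold change was 0.03. Oligodendrocyte markers ran from 4088 to 6878 CPM in WT and from 4138 to 7263 CPM in Nell-1+/6R females, so the mice of 1 genotype differed more than the genotypes. Camk2a and Slc17a7 of the CA pyramidal list and Prox1 of the dentate granule list were present in all 6 mice.

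Cells at the border of the hippocampus varied more. Leptomeningeal fibroblast markers summed to 589, 355 and 188 CPM in WT against 576, 114 and 323 CPM in Nell-1+/6R females, and 15 of 18 had a log2 fold change below 0, with a median of -0.71, or -1.31 without replicate 3. One of them, Col1a1, was called lower: 19.5, 21.3 and 7.04 CPM in WT stood against 8.14, 6.54 and 9.61 CPM. All 15 choroid plexus markers had a log2 fold change above 0, with a median of 0.77, yet 0 were called by edgeR (0 at an unadjusted p under 0.05) and every one overlapped between the groups. That median was -0.62 with limma-voom and -0.03 with the replicate block. It ran from -2.76 without Nell-1+/6R replicate 1, the mouse with the most choroid plexus RNA, over 0.23 without WT replicate 3 and 1.32 without Nell-1+/6R replicate 3, to 1.70 without WT replicate 1. Without Nell-1+/6R replicate 1, 12 of the 15 were called, against 133 (0.918%) of all genes tested. Without replicate 3 the medians of ependymal, mural, border-associated macrophage and oligodendrocyte markers went from 0.37, -0.21, -0.42 and 0.04 to 0.64, -0.36, -0.90 and 0.18. With all 6 females 1 of 11 mural and 1 of 15 endothelial markers was called, against 0.635% of all genes. Des, the muscle-type filament of pericytes and smooth muscle, had 6.06, 4.39 and 2.91 against 2.29, 1.94 and 2.89 CPM, and Vwf, the endothelial clotting factor, had 40.8, 39.4 and 25.9 against 17.1, 19 and 30.1 CPM. Mrc1, the mannose receptor of macrophages at the brain borders, was called among 4 tested of 9, with 75, 55 and 30 counts against 16, 17 and 39. For Col1a1, Vwf and Mrc1 the groups overlapped. Vwf and Mrc1 lost their call without any 1 of WT replicates 1 and 2 and Nell-1+/6R replicates 1 and 2, Col1a1 without WT replicate 1 or 2 or Nell-1+/6R replicate 2, and Des without WT replicate 1 or Nell-1+/6R replicate 2. Over the 6 mice left out the log2 fold changes ran from -0.97 to -0.50 for Vwf, from -1.48 to -0.78 for Mrc1, from -1.31 to -0.72 for Col1a1 and from -1.11 to -0.61 for Des, with -0.67, -0.99, -0.96 and -0.90 in all mice. What these border tissues contribute to the genes above was not tested.

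**Figure D4:**
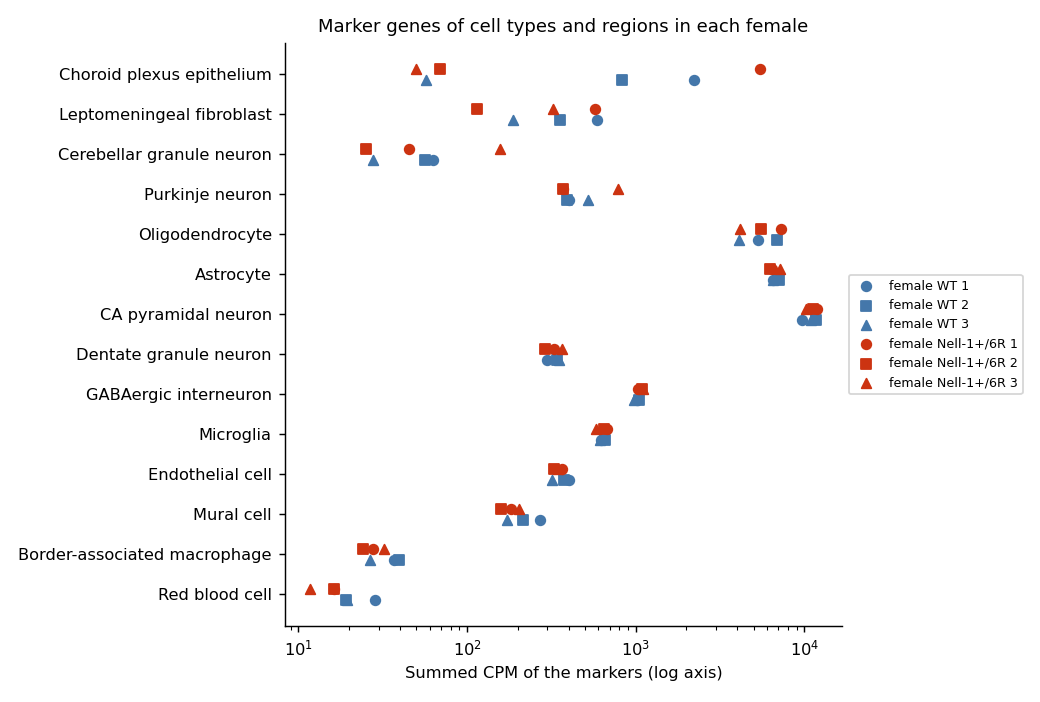
Summed CPM of the markers of 14 cell types or regions in each female, on a log axis, WT in blue and Nell-1+/6R in red, with a marker shape per replicate number. Choroid plexus sums span 49.7 to 5479 CPM and Nell-1+/6R replicate 3 is far to the right for cerebellar granule neurons (157 CPM, against at most 62.9), less so for Purkinje neurons (788 against at most 521), while the sums of CA pyramidal neurons, astrocytes and microglia stay within a narrow band.

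The effect of leaving out Nell-1+/6R replicate 3 differed with the length of the genes. Genes that span over 300 kb in the annotation (511 of those tested) had a median log2 fold change of -0.06 with all 6 females and of -0.24 without it, and genes under 10 kb one of 0.06 and 0.10. These long genes took 4.51% of the counts of replicate 3, 3.58% and 3.76% in replicates 1 and 2, and 3.88% to 4.30% in the WT mice. Of the genes over 300 kb, 10.2% were called without replicate 3, against 2.24% of those under 10 kb. Genes called lower without it had a median span of 58.8 kb, genes called higher one of 10.7 kb, and all tested genes one of 24.1 kb. RNA quality was not analysed here.

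The leading genes of the females were also read in the 6 males, which are other mice and share no control with them. Nell1 fell in the males as well, from 35.6, 34.6 and 30.5 CPM in WT to 20.2, 17.3 and 16.5 CPM in Nell-1+/6R males, a log2 fold change of -0.86 (SE 0.11). The interaction of genotype and sex for Nell1 was -0.15 on the log2 scale (SE 0.16, unadjusted p = 0.347). Of the 24 genes shown by mouse, 9 were past p and fold change in the males in the same direction, against 0.78% of all genes tested: Nell1, Gm5802, Ndn, Ccdc83, Snrpn, Ipw, Slc17a6, A230057D06Rik and the gene ID 613263. Of these 9, those with a known position other than Gm5802 lie on chromosome 7. Ccdc83 had 1, 0 and 1 counts in WT males and 2, 11 and 25 in Nell-1+/6R males, so Nell-1+/6R male replicate 1 lay near the WT level. Of all 92 genes, 15 (16.3%) were past both thresholds in the males in the same direction, and 53 (57.6%) had the same sign, against 44.3% of all genes tested.

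The rise of the chromosome 11 genes was not seen in the males. Pttg1 rose in the females but fell in the males, from 23.2, 18.3 and 9.19 CPM in WT to 9.27, 9.95 and 8.57 CPM in Nell-1+/6R males (log2 fold change -0.82, SE 0.24). Its interaction was 1.90 on the log2 scale (SE 0.34, unadjusted p = 9.93e-05, adjusted p = 0.719 in edgeR). The male values of 2610507I01Rik, Lyrm7, Mrpl55 and 4933439C10Rik were -0.38, 0.00, -0.20 and -0.43, with unadjusted interaction p from 0.0027 to 0.0094. In the male WT group 1 mouse, replicate 1, was the highest of the 3 for all 5 genes and lay at or near the level of the Nell-1+/6R females, with 22.1 CPM of 2610507I01Rik against 10 and 10.9 in the other WT males.

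Over all genes the interaction passed an adjusted p of 0.05 for 0 genes in edgeR, where 397 (2.74%) had an unadjusted p under 0.05 and DESeq2 passed 3 genes. Those 3 also had the smallest p in edgeR. Cdr1 (Entrez ID 631990), on the X chromosome, had 47.5, 41.3 and 45.6 CPM in female WT and 26.9, 29.3 and 36.9 CPM in female Nell-1+/6R mice, but 40.6, 38.4 and 43.9 CPM in male WT and 51.6, 57.8 and 53 CPM in male Nell-1+/6R mice. Within each sex the groups did not overlap and the order was opposite, with an interaction of -0.98 (SE 0.17, unadjusted p = 6.75e-05, adjusted p = 0.719). A circular RNA is made from the opposite strand of this locus, and the counts cannot be told apart without strand. The unnamed gene ID 665689 fell by 0.90 in females and had a male value of 0.74 (interaction -1.66, SE 0.33, unadjusted p = 0.000263), and Pttg1 was the other of the 3.

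**Figure D5:**
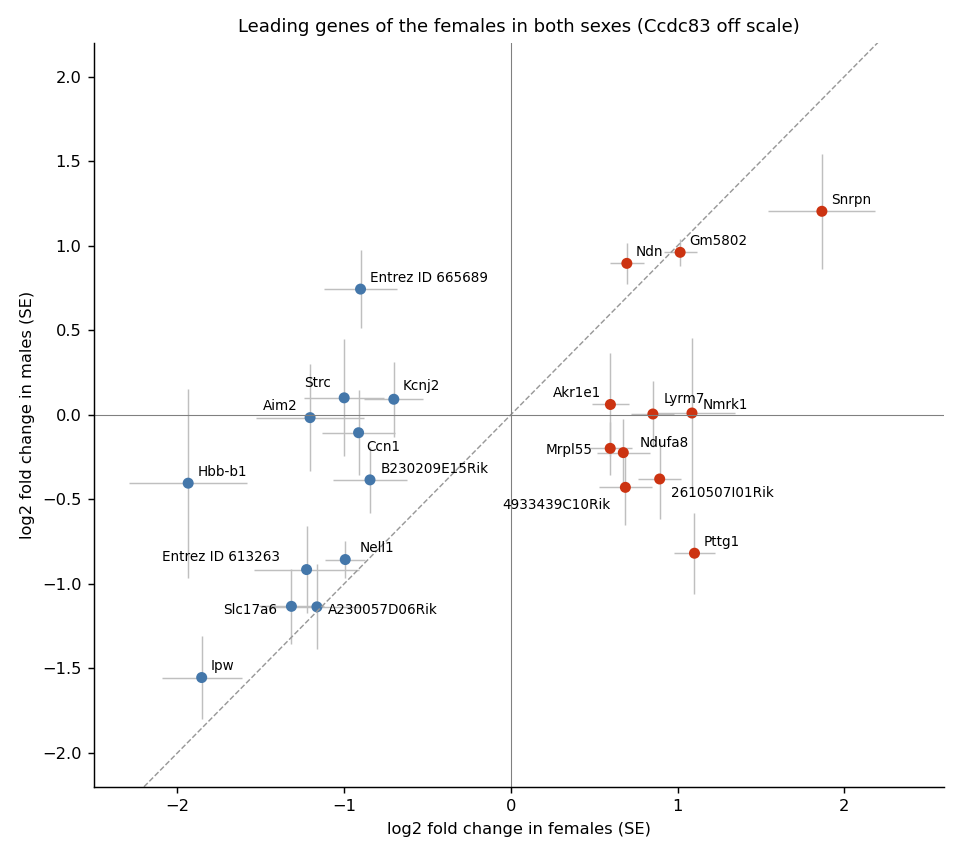
Log2 fold change, Nell-1+/6R over WT, in females (horizontal, SE) against males (vertical, SE) for 23 of the 24 leading genes of the females, red where higher and blue where lower in females, with the line of equal effect dashed. Nell1, Ipw, Slc17a6, Ndn and Gm5802 lie near the dashed line, Pttg1 at -0.82 and the gene ID 665689 at 0.74 in males lie on the opposite side of 0, and Ccdc83 (4.59 in females, 3.81 in males, fitted on very low WT counts) is off the scale.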

How the data were processed

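Hippocampal RNA of 12 mice was sequenced by the authors with short single reads, aligned to mm10 with HISAT2 2.1.0 and counted per gene with featureCounts (2.0.1 in the submitters' processing notes). The deposited values are raw counts per Entrez gene ID. The strand setting and the treatment of multi-mapping reads were not stated in the sources used here. From the counts of the 6 females, CPM was computed on each mouse's total, and genes with at least 1 CPM in at least 3 mice were fitted with edgeR 4.0.16 (R 4.3.3) after TMM scaling, by the quasi-likelihood test with Benjamini-Hochberg adjustment. The interaction with sex was fitted over all 12 mice. The script was tested on simulated data. Genes named are Nell1, the 12 with the smallest p in each direction among those past p under 0.05 and 1.5-fold whose groups did not overlap, those with the smallest interaction p, and members of fixed lists. The members and lists were chosen with earlier results of these data known. Whether replicates came from separate litters is not stated, and p-values measure the spread between these mice. Alternatives used DESeq2 1.42.0, limma-voom 3.58.1, other scalings and filters, a replicate block, and each mouse left out. Positions and promoters are RefSeq GRCm38.p6. Same-numbered WT and Nell-1+/6R females had deviations correlated at 0.258, 0.00988 and 0.369. These values do not settle whether the numbers pair mice, and the fit of the females used no pairing. Some results on single genes are not reported here.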

Additional observations from a re-analysis of the deposited data

How the results depend on the processing

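Of the 32 named genes called, all kept their direction under the 15 alternative settings, and 21 kept the call in all of them. The count at an adjusted p under 0.05, 0 in edgeR, was 11 with DESeq2, 1 without a filter (Gm5802), 3 in the fit over 12 mice (Gm5802, Nell1 and Ipw), and 0 to 1 with each mouse left out. With the replicate block it was 3 (Gm5802, Nell1 and Pttg1), although it is not known whether the numbers pair the mice. The 92 genes at p and fold change became 228 (89 higher, 139 lower) with at least 0.2 CPM in 2 mice, 277 (109 higher, 168 lower) without a filter, and 209 (97 higher, 112 lower) with no fold threshold. They ran from 66 to 522 with 1 mouse left out (39 to 74 higher, 26 to 448 lower), the most without Nell-1+/6R replicate 3 and the fewest without WT replicate 1, with 143 without WT replicate 3. The interaction count at an adjusted p, 0 in edgeR, was 3 with DESeq2 and 0 to 2 with 1 mouse left out, 2 without male WT replicate 3. Without female Nell-1+/6R replicate 1, Kl turned from 0.41 to -1.04 and Ttr from 0.89 to -5.32, neither of them called with all mice. Over the 6 mice left out Kl ran up to 0.90 and Ttr up to 2.19, both without WT replicate 1. The cause of these changes was not tested. Genes near 1 CPM rest on 12.4 to 16 reads a mouse, and 16 of the 92 had a mean count under 20.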
